A study of Emberiza bruniceps with 4 samples.

Results

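The proteasome is the protease complex that degrades proteins tagged with ubiquitin. Its barrel-shaped core particle is built of alpha subunits, which form the outer rings and gate the entrance, and of beta subunits, some of which carry the proteolytic sites. The regulatory particle caps the barrel: its base holds the ATPases that unfold and translocate substrates, and its lid removes ubiquitin. Dedicated chaperones assemble both particles, and activators, adaptors and inhibitors bind the finished complex. In the brain, as in other tissues, the complex sets the turnover of short-lived and damaged proteins.

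The genes described are those whose collared flycatcher protein name, taken from the best match of each assembled contig, begins with proteasome, 26S proteasome or 26S protease regulatory subunit. This rule, which used no measured level, gave 30 genes of 11944 protein names with counts. They comprise 9 core particle subunits, 10 regulatory particle subunits and 11 accessory factors (assembly chaperones, the activator PSME4, the adaptor ECM29 and the inhibitor PSMF1). The files give protein names, and the gene symbols used here were paired with those names by hand. Levels are given as CPM, the estimated counts of a gene relative to all counts on matched contigs, scaled between libraries by TMM. A mean level of 1 CPM or more was required, which 26 of the 30 members and 10560 genes in all reached.

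The hypothalamus was taken from wild-caught birds of the species Emberiza bruniceps, the red-headed bunting, a songbird that migrates in spring and autumn. The 4 groups were spring castrated, autumn castrated, spring intact and autumn intact. Each group is 1 library without a replicate, so the spread within a group is unknown. The labels give no age, no sex, no time since castration and no number of birds per library. In a bulk library, fewer cells of a type and less RNA per cell cannot be told apart. Each ratio below carries a 95% interval that covers counting error only, taken from the binomial split of the counts of its 2 libraries.

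The libraries held 16840270 (spring castrated), 26213011 (autumn castrated), 18155277 (spring intact) and 18210588 (autumn intact) estimated counts, of which 39.1% to 41.7% lay on contigs with a protein match. Of 14 analysed hypothalamus markers, 13 had counts in every library, and 1 was at 0 in the autumn intact library. The 14 summed to 361 and 470 CPM in castrated birds, against 367 and 332 CPM in intact birds. These sums join opposite directions, so they do not show equal hypothalamic content. POMC had 624 and 1980 counts in castrated birds, against 18 and 1 in intact birds. NPY had 93 and 274 counts in castrated birds, against 857 and 1046 in intact birds. The median castrated-over-intact log2 ratio of the 14 was 0.11 in spring and 0.16 in autumn. Single markers differed more: the ratio was -3.03 in spring and -3.36 in autumn for NKX2-1, -3.09 and -2.36 for NPY, and 4.92 and 8.27 for POMC. In both seasons 2 of the 14 were at least 2-fold higher in castrated birds, and 2 at least 2-fold lower. Marker lists of neighbouring regions separated the castrated from the intact libraries in both seasons. The summed level of 11 telencephalon and striatum markers was 669.9 and 682 CPM in castrated birds, against 2542 and 2765 CPM in intact birds. Of the 11, 10 were lower in castrated birds in both seasons, ADORA2A only slightly, at log2 ratios of -0.16 and -0.04. NEUROD6 was higher, at 2.77 and 1.81. The summed level of 11 thalamus, midbrain and hindbrain markers was 675 and 441 CPM in castrated birds, against 59.99 and 52.8 CPM in intact birds, with 3 of them at 0 in both intact libraries. Of these 11, 8 were at least 2-fold higher in castrated birds in both seasons. The exceptions were TCF7L2, at log2 ratios of -0.25 in spring and 0.47 in autumn, GBX2, at 0.61 and 0.67, and GATA3, at 2.67 and 0.63. The 10 pituitary markers summed to 854 and 357 CPM in castrated birds, against 6.16 and 0.945 CPM in intact birds, with 2 of them at 0 in both intact libraries. The 5 myelin markers summed to 20905 and 17680 CPM in castrated birds, against 9482 and 5528 CPM in intact birds. The 3 neuron markers summed to 4532 and 3516 CPM in castrated birds, against 2526 and 2262 CPM in intact birds. They did not share a direction. The castrated-over-intact log2 ratio was 1.67 in spring and 1.02 in autumn for NEFL and 3.09 and 2.46 for NEFM, but -1.10 and -0.72 for SYT1. The 2 astrocyte markers summed to 371 and 346 CPM in castrated birds, against 1290.02 and 1248 CPM in intact birds. The sums of the microglia markers (609 and 435 CPM in castrated birds, 241 and 652 CPM in intact birds) and of the choroid plexus markers (855 and 1821 CPM in castrated birds, 299.8 and 7812 CPM in intact birds) overlapped between the states. The extent of the dissected tissue and the gonadal state therefore cannot be told apart in any castrated-over-intact ratio below.

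The analysed core and regulatory particle genes were higher in the castrated than in the intact library in both seasons, with the exception of the lid subunit PSMD3 in autumn. For PSMD4 the spring levels were nearly equal, with a counting interval that spans 0. The 7 core subunits summed to 771 CPM (spring) and 862 CPM (autumn) in castrated birds, against 503 CPM (spring) and 495 CPM (autumn) in intact birds. The 8 regulatory particle subunits summed to 1348 and 1587 CPM in castrated birds, against 948 and 904 CPM in intact birds. The sum of the 11 accessory factors showed no such step, with 981 and 973 CPM in castrated birds and 979 and 921 CPM in intact birds. That sum joins opposite directions. Of the 11, 7 had both castrated levels above both intact levels, against 32.9% of all genes analysed. Both lay below for 3 of the 11, against 33.8% of all genes. ECM29 and PSME4 alone summed to 238 and 225 CPM in castrated birds, against 365 and 346 CPM in intact birds. As ratios of the group sums, the core stood 1.53-fold higher in spring and 1.74-fold higher in autumn, the regulatory particle 1.42-fold and 1.76-fold, and the accessory factors 1.002-fold and 1.06-fold. All members together took 0.321% and 0.317% of the counts on matched contigs in castrated birds, against 0.244% and 0.241% in intact birds.

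**Figure D1:**
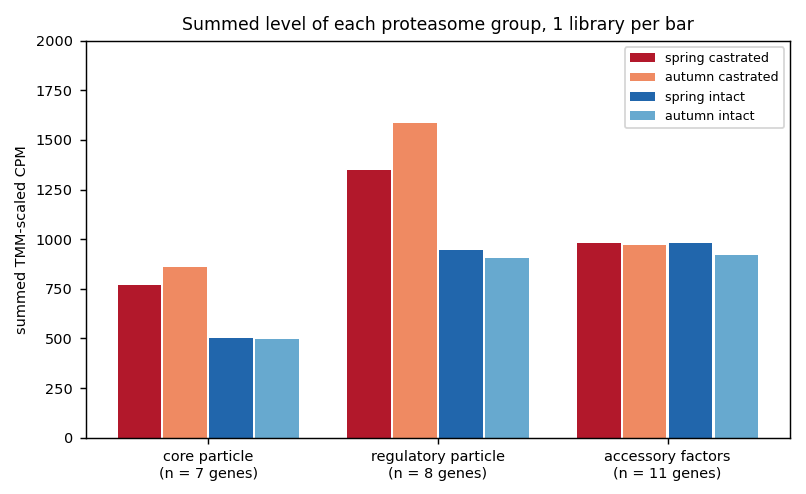
Summed TMM-scaled CPM (vertical axis) of the 7 core subunits, the 8 regulatory particle subunits and the 11 accessory factors, with 1 bar per library and no error bar because each group has 1 library. The castrated bars of the core (771 and 862 CPM) and regulatory particle (1348 and 1587 CPM) exceed both intact bars. The accessory bars lie between 921 and 981 CPM and join factors of opposite directions.

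Gene by gene, the castrated-over-intact log2 ratio was above 0 for 22 of 26 members in spring, against 50.5% of all genes analysed, and for 21 in autumn, against 49.3%. It was above 0 in both seasons for 21 members, or 80.8%, against 38.2% of all genes. Both castrated levels exceeded both intact levels for 21 members, against 32.9% of all genes, and lay below both for 3 (PSMD5, PSME4 and ECM29), against 33.8%. The members' median log2 ratio was 0.45 in spring and 0.70 in autumn, which is 1.36-fold and 1.62-fold, against 0.01 and -0.01 over all genes. All 7 core subunits and 7 of the 8 regulatory particle subunits were above 0 in both seasons, and 7 of the 11 accessory factors were. The median of the core subunits was 0.63 in spring and 0.86 in autumn, that of the regulatory particle 0.50 and 0.85, and that of the accessory factors 0.07 and 0.45. The core median exceeded the regulatory median by 0.13 in spring and by 0.01 in autumn, and under other processing settings these differences ranged between 0.004 and 0.18 in spring and took either sign between -0.26 and 0.03 in autumn. One member, PSMB3, reached 1 CPM in the castrated libraries only, so that it could be analysed only by being higher there. Without it the medians were 0.43 and 0.67, and 20 of 25 members were above 0 in both seasons. A 5 CPM minimum, which leaves PSMB3 out, kept 6 core subunits, all above 0 in each season, at medians of 0.62 and 0.75. The core median then differed from the regulatory median by 0.12 in spring and by -0.09 in autumn. The counting interval lay wholly above 0 for 19 members in spring and 21 in autumn, PSMB3 included in each, against 33.6% and 35.6% of all genes.

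The differences were small in size. A fold of at least 2 was reached by 1 of 26 members in spring, the rarely counted PSMB3, or 3.85%, against 8.62% of all genes 2-fold higher. In autumn 5 of 26 reached it (PSMA3, PSMB3, PSMD7, PSMD13 and PSMG4), or 19.2%, against 12.3% of all genes. Without PSMB3 the numbers were 0 in spring and 4 in autumn. No member was 2-fold lower in castrated birds in either season, where 14.6% and 15.3% of all genes were.

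**Figure D2:**
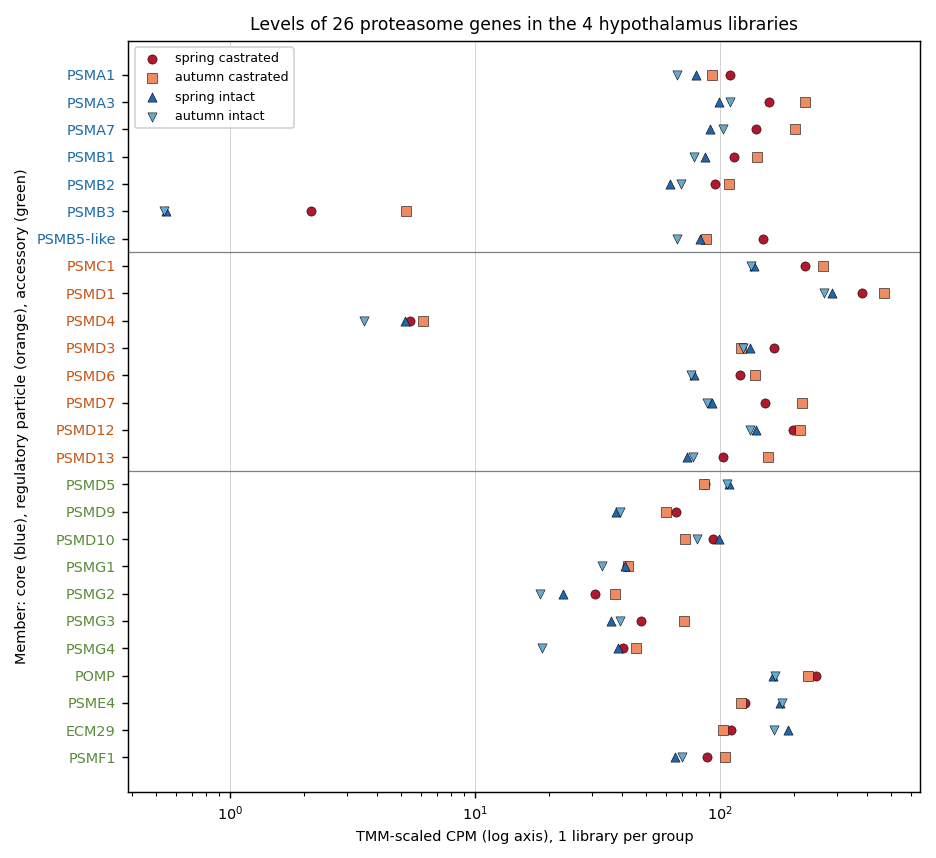
Level of each of the 26 analysed members in the 4 libraries, as TMM-scaled CPM on a log axis, with 1 point per library and the members grouped as core (blue names), regulatory particle (orange) and accessory (green). Both castrated points lie to the right of both intact points for 21 members, and to the left for PSMD5, PSME4 and ECM29.

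One fit used all 4 libraries together: season and gonadal state as additive terms in edgeR's quasi-likelihood test, with Benjamini-Hochberg adjustment over all 10560 genes and an adjusted p below 0.05 as the threshold. It has 1 residual degree of freedom, which comes from the difference between the 2 seasons in the effect of gonadal state. The error of each gene also draws on all other genes, with 4.82 prior degrees of freedom. By this test 9 of 26 members were higher in castrated libraries, or 34.6%, against 8.06% of all genes, and 1 was lower, or 3.85%, against 14.4% of all genes. The 9 were 4 core subunits (PSMA3, PSMA7, PSMB2 and PSMB3) and 5 regulatory particle subunits (PSMC1, PSMD6, PSMD7, PSMD12 and PSMD13), and the 1 lower was the adaptor ECM29. Without PSMB3, 8 of 25 were called higher and 1 lower. At an unadjusted p under 0.05, 20 of the 26 passed, and 19 of 25 without PSMB3, against 38.2% of all genes. DESeq2 with the same design called 7 higher, against 8.08% of all genes, and 1 lower, against 13.3%. It did not call PSMB2 (DESeq2 adjusted p = 0.082), PSMB3 (0.156) or PSMD12 (0.0523), and it called PSMD1 (0.0304), which edgeR had not. With 1 contig per gene, the most counted, in place of the sum over contigs, edgeR called no gene at all among 10453, and 11 members had an unadjusted p under 0.05, against 22.8% of all genes.

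Among the alpha subunits, PSMA3 had 159 CPM (spring castrated) and 222 CPM (autumn castrated), against 99.4 CPM (spring intact) and 110.3 CPM (autumn intact). Its castrated-over-intact log2 ratio was 0.67 in spring (0.54 to 0.81) and 1.01 in autumn (0.90 to 1.13), and the adjusted p of edgeR's quasi-likelihood test was 0.0231. PSMA7 had 141 CPM (spring castrated) and 203 CPM (autumn castrated), against 91.1 CPM (spring intact) and 103 CPM (autumn intact). Both subunits showed the same order of libraries: the autumn castrated library was highest, the spring castrated library next, and both intact libraries lay below. For PSMA7 the log2 ratio was 0.63 in spring (0.49 to 0.77) and 0.98 in autumn (0.86 to 1.10), with an adjusted p of 0.0274 in the same edgeR test. PSMA1, another alpha subunit, had 110.5 CPM (spring castrated) and 92.5 CPM (autumn castrated), against 79.8 CPM (spring intact) and 67.1 CPM (autumn intact). Here the spring castrated library was the highest, and the ratio of 0.47 in spring (0.31 to 0.63) and 0.46 in autumn (0.30 to 0.62) was the lowest of the class. The edgeR adjusted p of PSMA1 was 0.0981, above the threshold.

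PSMB1 and PSMB2 are beta subunits that build the inner rings without carrying a proteolytic site of their own. PSMB2 had 95.3 CPM (spring castrated) and 109 CPM (autumn castrated), against 62.5 CPM (spring intact) and 69.1 CPM (autumn intact). Both castrated libraries stood above both intact ones, at log2 ratios of 0.61 in spring (0.44 to 0.78) and 0.65 in autumn (0.50 to 0.81) and an edgeR adjusted p of 0.0468. PSMB1 had 114 CPM (spring castrated) and 142 CPM (autumn castrated), against 86.6 CPM (spring intact) and 78.3 CPM (autumn intact). Its groups did not overlap either, at log2 ratios of 0.40 in spring (0.25 to 0.55) and 0.86 in autumn (0.72 to 1.003), and its edgeR adjusted p was 0.0639.

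A gene matched to PSMB5-like, named for the beta subunit with the chymotrypsin-like site, departed from the order of its class. It had 149.6 CPM (spring castrated) and 87.9 CPM (autumn castrated), against 82.7 CPM (spring intact) and 66.7 CPM (autumn intact). The spring castrated library stood apart from the other 3 libraries, and the log2 ratio was 0.85 in spring (0.71 to 1.001) and 0.40 in autumn (0.24 to 0.56). Its most counted contig is 281 bases long at 69.8% identity, so the match to this subunit is uncertain. PSMB3, a further beta subunit without a proteolytic site, was counted rarely, with 15 counts (spring castrated) and 53 counts (autumn castrated), against 4 (spring intact) and 4 (autumn intact). These counts, spread over 5 contigs, gave a log2 ratio of 1.34 in spring (0.32 to 4.02) and 2.47 in autumn (1.84 to 5.21). Only the castrated libraries brought PSMB3 to the analysed level, so its ratio is given as a description and its call (edgeR adjusted p of 0.0464) supports nothing.

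**Figure D3:**
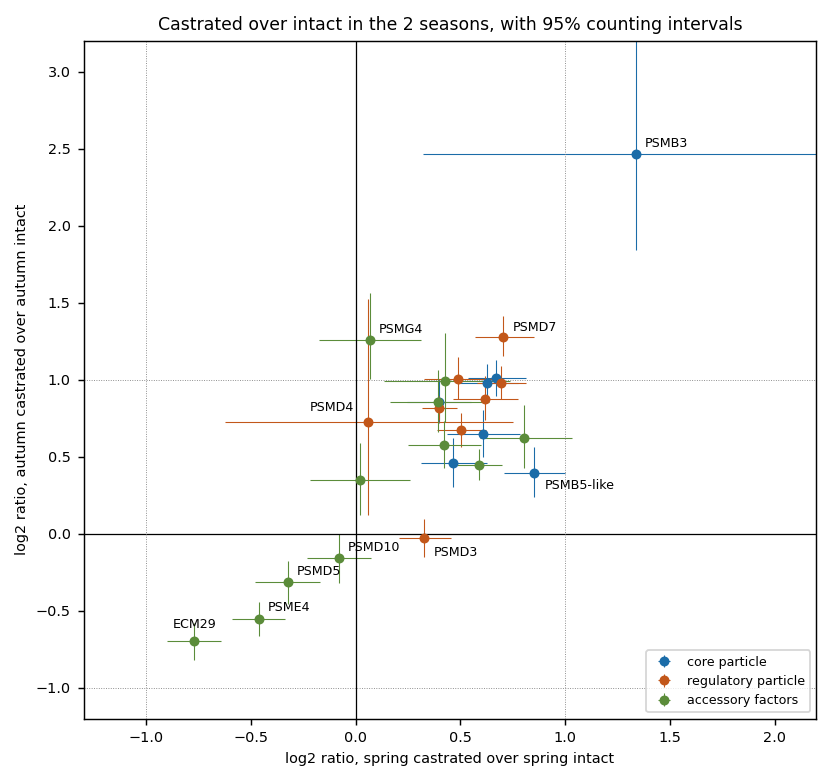
Castrated-over-intact log2 ratio of each of the 26 members in spring (horizontal) and autumn (vertical), with 95% counting intervals as bars and dotted lines at a 2-fold difference. Core (blue) and regulatory (orange) members lie in the upper right quadrant, with PSMD3 just below 0 in autumn. The accessory factors (green) PSMD5, PSMD10, PSME4 and ECM29 lie in the lower left, and the bars of PSMB3 run beyond the axes.

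In the base of the regulatory particle, PSMC1, an ATPase subunit, had 223 CPM (spring castrated) and 265 CPM (autumn castrated), against 137 CPM (spring intact) and 134 CPM (autumn intact). At log2 ratios of 0.69 in spring (0.58 to 0.81) and 0.98 in autumn (0.88 to 1.09), it had the lowest adjusted p of the 26 members in edgeR's quasi-likelihood test, 0.0206. PSMD1, a scaffold of the base, was the most counted member, with 379 CPM (spring castrated) and 469 CPM (autumn castrated), against 287 CPM (spring intact) and 267 CPM (autumn intact). Its groups did not overlap, the log2 ratio was 0.40 in spring (0.32 to 0.48) and 0.82 in autumn (0.74 to 0.89), and the edgeR adjusted p was 0.0554. PSMD4, a receptor for ubiquitin chains, was counted rarely, with 38 counts (spring castrated) and 62 counts (autumn castrated), against 38 (spring intact) and 26 (autumn intact). Its spring interval spans 0, at a log2 ratio of 0.06 in spring (-0.62 to 0.75) and 0.73 in autumn (0.12 to 1.53), and its most counted contig is 233 bases long at 74.0% identity.

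The lid held the member with the largest autumn ratio among those with more than 100 counts in each library. This was PSMD7, the partner of the lid's deubiquitinase, which had 152 CPM (spring castrated) and 216 CPM (autumn castrated), against 93.1 CPM (spring intact) and 88.7 CPM (autumn intact). The autumn castrated library stood well above the spring castrated one and both intact libraries lay close together, at log2 ratios of 0.70 in spring (0.57 to 0.85) and 1.28 in autumn (1.16 to 1.41) and an edgeR adjusted p of 0.0219. PSMD13 had 103 CPM (spring castrated) and 157 CPM (autumn castrated), against 73.3 CPM (spring intact) and 77.9 CPM (autumn intact). Its ratio of 0.49 in spring (0.33 to 0.65) and 1.01 in autumn (0.87 to 1.15) repeats that order, with an edgeR adjusted p of 0.0445.

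PSMD6, a further lid subunit, had 121 CPM (spring castrated) and 139.7 CPM (autumn castrated), against 78.6 CPM (spring intact) and 75.9 CPM (autumn intact). Its log2 ratio was 0.62 in spring (0.47 to 0.78) and 0.88 in autumn (0.74 to 1.02), with an edgeR adjusted p of 0.0303. PSMD12 had 198 CPM (spring castrated) and 212 CPM (autumn castrated), against 139.8 CPM (spring intact) and 133 CPM (autumn intact). The groups of both genes did not overlap, and PSMD12 had a log2 ratio of 0.50 in spring (0.39 to 0.62) and 0.67 in autumn (0.57 to 0.79) with an edgeR adjusted p of 0.0491.

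PSMD3 was the lid subunit farthest from its class in autumn, and the one analysed member of either particle not above 0 in both seasons. It had 167 CPM (spring castrated) and 122 CPM (autumn castrated), against 133 CPM (spring intact) and 125 CPM (autumn intact). The spring castrated library was highest and the autumn castrated library was the lowest of the 4, at log2 ratios of 0.33 in spring (0.20 to 0.45) and -0.03 in autumn (-0.15 to 0.10). In autumn its ratio lay 0.90 below the lid median of 0.88, and its edgeR adjusted p was 0.568.

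The accessory factors differed in direction. All 5 factors that assemble the core particle (PSMG1 to PSMG4 and POMP) were above 0 in both seasons, as was the inhibitor PSMF1. The spring counting intervals of PSMG1 and PSMG4 span 0. Of the 3 chaperones of the regulatory particle base, PSMD9 was above 0 in both seasons, and PSMD5 and PSMD10 were below 0 in both. The activator PSME4 and the adaptor ECM29 were also below 0 in both, which makes 4 of 26 members, or 15.4%, against 38.4% of all genes.

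POMP, a maturation factor of the core particle, was the most counted of the accessory factors. It had 247 CPM (spring castrated) and 228 CPM (autumn castrated), against 164 CPM (spring intact) and 168 CPM (autumn intact), at a log2 ratio of 0.59 in spring (0.48 to 0.70) and 0.45 in autumn (0.35 to 0.55). Its edgeR adjusted p was 0.0642. The chaperone pair PSMG1 and PSMG2, which starts the alpha ring, gave log2 ratios of 0.02 in spring (-0.22 to 0.26) and 0.35 in autumn (0.12 to 0.59) for PSMG1. For PSMG2 the log2 ratio was 0.43 in spring (0.14 to 0.73) and 0.99 in autumn (0.73 to 1.31). In both the autumn ratio was the larger, and PSMG1 was the assembly factor farthest below its class median in each season.

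PSMG3 and PSMG4 form a second chaperone pair. PSMG4 had 40.2 CPM (spring castrated) and 45.5 CPM (autumn castrated), against 38.3 CPM (spring intact) and 18.8 CPM (autumn intact). Here the autumn intact library stood apart from the other 3, at log2 ratios of 0.07 in spring (-0.18 to 0.31) and 1.26 in autumn (1.002 to 1.56), and the edgeR adjusted p was 0.211. PSMG3 had a log2 ratio of 0.39 in spring (0.16 to 0.64) and 0.85 in autumn (0.66 to 1.06), on a contig of which the match covers 8.7%. PSMF1, an inhibitor of the core particle in vitro, had a log2 ratio of 0.42 in spring (0.25 to 0.60) and 0.57 in autumn (0.42 to 0.73), with an edgeR adjusted p of 0.088.

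PSMD9 had 66.4 CPM (spring castrated) and 60.4 CPM (autumn castrated), against 37.8 CPM (spring intact) and 39.0 CPM (autumn intact). At log2 ratios of 0.80 in spring (0.59 to 1.03) and 0.62 in autumn (0.43 to 0.84) it was the farthest from its class in both seasons, and its edgeR adjusted p of 0.0502 was just above the threshold. PSMD5, which like PSMD9 binds ATPases of the base during assembly, had 86.9 CPM (spring castrated) and 86.0 CPM (autumn castrated), against 109 CPM (spring intact) and 107 CPM (autumn intact). Both castrated libraries lay below both intact ones, at log2 ratios of -0.32 in spring (-0.48 to -0.17) and -0.32 in autumn (-0.46 to -0.18) and an edgeR adjusted p of 0.205. PSMD10, known as gankyrin, had 94.2 CPM (spring castrated) and 72.2 CPM (autumn castrated), against 99.6 CPM (spring intact) and 80.6 CPM (autumn intact). Its groups overlapped, at log2 ratios of -0.08 in spring (-0.23 to 0.07) and -0.16 in autumn (-0.32 to -0.001). The match covers 10.5% of its contig.

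ECM29, an adaptor that holds the core and regulatory particles together in yeast, had 111 CPM (spring castrated) and 103 CPM (autumn castrated), against 189.6 CPM (spring intact) and 167 CPM (autumn intact). The castrated libraries lay below the intact ones in both seasons at log2 ratios of -0.77 in spring (-0.90 to -0.65) and -0.69 in autumn (-0.82 to -0.58), and edgeR's quasi-likelihood test gave an adjusted p of 0.0268. This call rests on a sum over 12 contigs that differed in direction. The contigs with 33.1% and 29.5% of the ECM29 counts were below 0 in both seasons. A contig with 13.9% was at 0.09 in spring and 6.06 in autumn. PSME4, an activator that can cap an end of the core particle, had 127 CPM (spring castrated) and 122 CPM (autumn castrated), against 175 CPM (spring intact) and 179.7 CPM (autumn intact). It too was lower in both castrated libraries, at log2 ratios of -0.46 in spring (-0.59 to -0.34) and -0.55 in autumn (-0.67 to -0.44), with an edgeR adjusted p of 0.0709.

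Over all genes, the castrated-over-intact ratio was lower on longer contigs. Spearman's rho of the ratio with the count-weighted length of a gene's contigs was -0.25 in spring and -0.27 in autumn, as a description over 10560 genes that share the same 4 libraries. With genes placed in length deciles, the median log2 ratio of the decile with the shortest contigs was 0.23 in spring and 0.41 in autumn, and that of the decile with the longest was -0.48 and -0.47. PSME4, at a length of 7390 bases, and ECM29, at 5026 bases, fall in that longest decile, ECM29 at its lower edge. The ratios of PSME4 lie close to the median of that decile. PSMC1, at 5333 bases, falls in it as well, with ratios above 0 in both seasons.

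With each gene taken relative to the median of its own decile of mean contig length, the members' median log2 ratio was 0.36 in spring and 0.58 in autumn. Relative to the decile of count-weighted length, a setting added after the data were seen, 17 members were above 0 in both seasons in place of 21, against 37.8% of all genes. The 23 members whose longest contig is under 5000 bases had medians of 0.47 and 0.73, and 20 of them were above 0 in both seasons. The part of contig length in the lower levels of ECM29 and PSME4 was not tested.

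**Figure D4:**
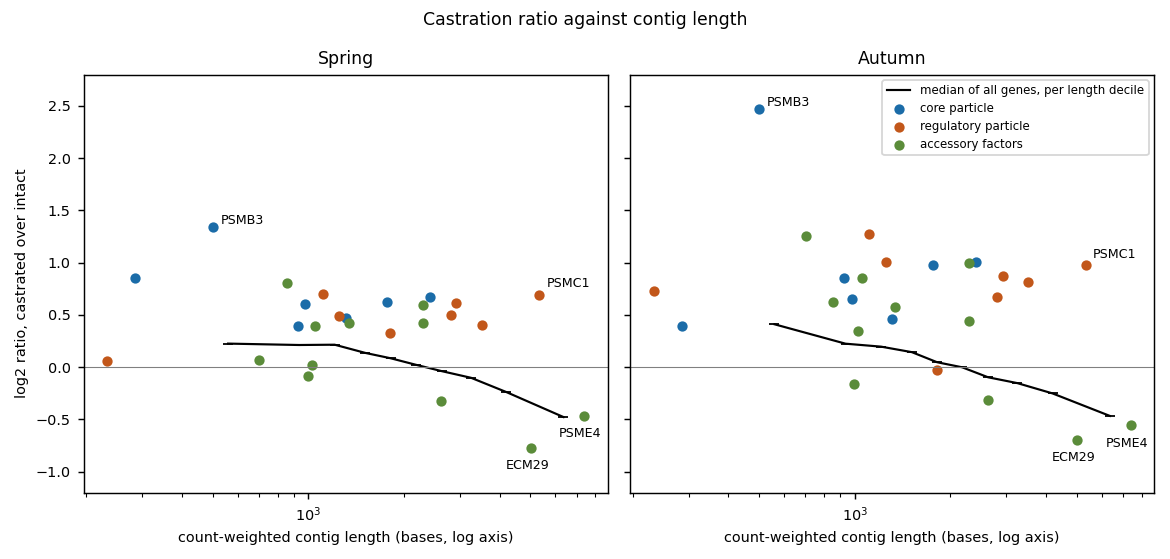
Castrated-over-intact log2 ratio of the 26 members (points) against count-weighted contig length in bases (log axis), in spring and autumn, with the black line joining the median ratio of all genes in each length decile. The line falls to -0.48 and -0.47 in the longest decile, where PSMC1 lies above 0 and ECM29 and PSME4 lie below 0.

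Several members sat on more than 1 contig, and their counts changed places between contigs from library to library. The 30 members had 80 contigs with counts, of which 68 matched at 90% identity or more. For POMP, a contig of 2341 bases held 589 counts in the spring intact library and 0 in the other 3, while a contig of 2320 bases at the same identity held 1702 counts (spring castrated), 2269 (autumn castrated), 581 (spring intact) and 1217 (autumn intact). For PSMD9, a contig of 843 bases held 231 counts in the autumn intact library and 0 elsewhere. Of 48 member contigs with at least 100 counts, 27 were above 0 in both castrated-over-intact pairs, against 30.7% of all 20482 matched contigs with as many counts, and 8 were below 0 in both, against 37.4%. Sums per gene are therefore given here, and a single contig of these genes can show a difference that the sum does not.

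The members' season ratios were nearer 0 in median than their castration ratios and had no direction common to castrated and intact birds. The median spring-over-autumn log2 ratio was -0.18 in castrated birds and 0.06 in intact birds, against 0.00 and 0.03 over all genes. In castrated birds 9 of 26 members were above 0, against 50.3% of all genes, and in intact birds 17, against 54.2%. Only 6 members were above 0 in both season pairs and 6 below 0 in both, each 23.1%, against 29.1% and 24.5% of all genes. In the additive fit edgeR's quasi-likelihood test called 0 members for season, where it also called 0.0% of all genes. At an unadjusted p under 0.05 it named 1 member, PSMB5-like (adjusted p = 0.874), and 537 genes, or 5.09%. DESeq2 called 0 members at either threshold. Of all 10560 genes DESeq2 called 4 higher and 8 lower in spring at the adjusted threshold, and 334 in either direction at the unadjusted one.

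A 2-fold season difference was reached by 1 member in each pair. In castrated birds it was PSMB3, lower in spring at a log2 ratio of -1.12 (-2.22 to -0.44) on 15 counts in spring and 53 in autumn, where 5.42% of all genes were 2-fold lower. In intact birds it was PSMG4, higher in spring at 1.01 (0.73 to 1.33) on 280 counts in spring and 139 in autumn, where 2.6% of all genes were 2-fold higher. The opposite directions held 0 members, against 2.52% of all genes 2-fold higher in castrated and 4.39% 2-fold lower in intact birds.

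Within castrated birds the counting interval lay below 0 for 13 of 26 members, PSMB3 included, or 50.0%, against 26.5% of all genes. The core and regulatory subunits made up most of these: the median spring-over-autumn log2 ratio in castrated birds was -0.32 for the core, -0.23 for the regulatory particle and 0.01 for the accessory factors. In intact birds those medians were 0.01, 0.07 and 0.02. With library totals in place of TMM, the castrated season medians were -0.16 for the core, -0.07 for the regulatory particle and 0.17 for the accessory factors, while the median of all genes was 0.16. PSMD13 illustrates the pattern, at spring-over-autumn log2 ratios of -0.61 in the castrated pair (-0.74 to -0.48) and -0.09 in the intact pair (-0.26 to 0.08). PSMA7 gave -0.52 in the castrated pair (-0.64 to -0.41) and -0.18 in the intact pair (-0.33 to -0.02), while PSMB5-like ran the other way at 0.76 in the castrated pair (0.64 to 0.90) and 0.31 in the intact pair (0.14 to 0.48). PSMA1 was also above 0, at 0.26 in the castrated pair (0.12 to 0.40) and 0.25 in the intact pair (0.08 to 0.43).

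Set out by library, the autumn castrated library was the highest of the 4 for 17 members, or 65.4%, against 28.4% of all genes, and the spring castrated library for 5, or 19.2%, against 23.0%. The castrated-over-intact ratio was larger in autumn than in spring for 19 members, or 73.1%, against 52.4% of all genes. PSMB3, which could be analysed only by being higher in castrated libraries, is among the 17 and among the 19. The autumn castrated library also differed in make-up: its contigs lost 211 bases to effective length, a measure that follows the length of the sequenced fragments, against 261 to 266 bases in the other 3 libraries. Without that library, spring castrated levels exceeded both intact levels for 22 of 26 members, PSMB3 included, against 42.2% of all genes. Whether fragment length had a part in the autumn castrated levels was not tested.

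**Figure D5:**
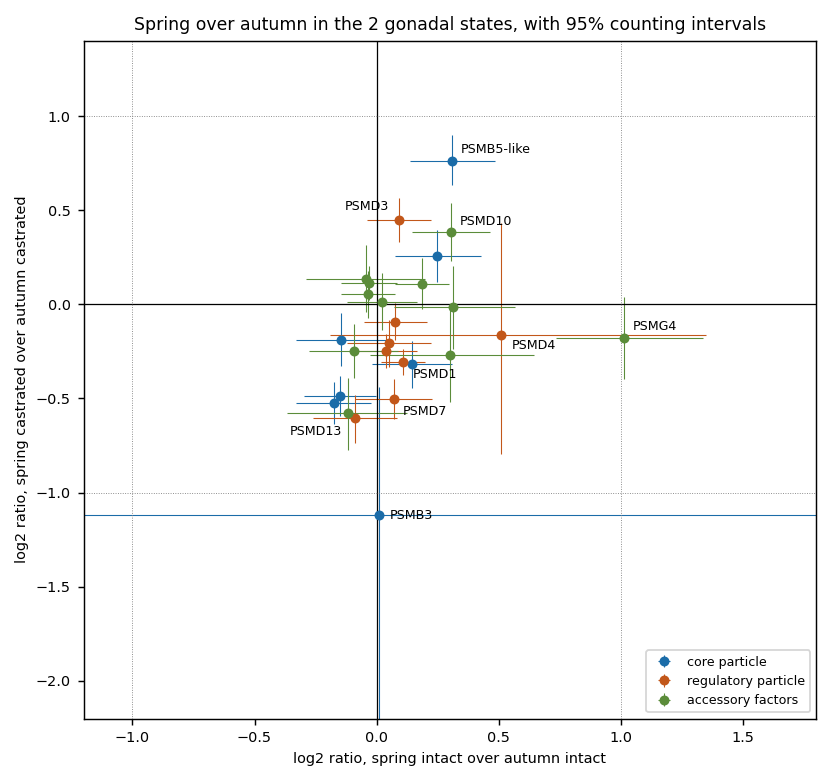
Spring-over-autumn log2 ratio of the 26 members in castrated birds (vertical) and intact birds (horizontal), with 95% counting intervals as bars and dotted lines at a 2-fold difference. Most core (blue) and regulatory (orange) members lie below 0 on the castrated axis and near 0 on the intact axis. PSMA1, PSMB5-like and PSMD3 lie above 0 on both, and the bars of PSMB3 run beyond the axes.

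Levels between members can be compared as the deposited TPM, which corrects for contig length. The mean TPM over the 4 libraries had a median of 25.6 over the core subunits and 22.7 over the accessory factors. The median of the regulatory particle is not compared, because the TPM of PSMD4 is among the values that set it. Within the alpha subunits the highest mean was that of PSMA7 at 25.6 TPM, and within the lid that of PSMD13 at 56.1 TPM. PSMD1 averaged 31.7 TPM. No TPM is compared for PSMD4, whose main contig of 233 bases is shorter than the 261 to 266 bases lost to effective length in 3 libraries. PSMC1 averaged 10.8 TPM, PSME4 6.55 TPM and ECM29 13.9 TPM, all on long contigs. Among assembly factors the lowest mean was 3.89 TPM for PSMG2. The highest, 111 TPM for PSMG3, rests in part on a contig of 219 bases that holds 27.2% of its counts. The highest mean, 364 TPM for PSMB5-like, rests on a contig of 281 bases, where TPM depends strongly on the effective length.

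The other 4 members stayed below the level analysed: the alpha subunit PSMA6, the beta subunit PSMB4 and the lid subunits PSMD8 and PSMD11. PSMB4 had 12 counts (spring castrated) and 7 counts (autumn castrated), against 2 (spring intact) and 4 (autumn intact). PSMA6 had 1 count (spring castrated) and 4 counts (autumn castrated), against 2 (spring intact) and 5 (autumn intact). PSMD8 had 1 count (spring castrated) and 4 counts (autumn castrated), against 1 (spring intact) and 1 (autumn intact), and PSMD11 had 1 count (spring castrated) and 4 counts (autumn castrated), against 0 (spring intact) and 2 (autumn intact). A count of 0 in the spring intact library allows up to 3 counts, or 0.411 CPM, so no difference of PSMD11 was detectable at this depth. Their longest contigs measured 277 to 599 bases.

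Genes that act next to the proteasome were described from a list of 46 symbols for ubiquitin conjugation, shuttling, deubiquitination and proteasome gene regulation, of which 24 matched a flycatcher name and 22 were analysed. Their median castrated-over-intact log2 ratio was 0.28 in spring and 0.23 in autumn, against 0.01 and -0.01 over all genes, with 13 of 22 above 0 in both seasons, against 38.2% of all genes, and 4 below, against 38.4%. In the additive fit edgeR's quasi-likelihood test called 2 of the 22 higher, against 8.06% of all genes, and 1 lower, against 14.4%, which is near or below the background. ZFAND2B, which binds the proteasome, had 47 counts (spring castrated) and 40 counts (autumn castrated), against 2 (spring intact) and 3 (autumn intact). It is 1 of the 2 called higher, but only its castrated libraries brought it to the analysed level, and its log2 ratio of 3.22 in spring (2.68 to 7.71) and 2.30 in autumn (1.64 to 5.63) is a description. Without it 1 of 21 was called higher. PITHD1 had 75 counts (spring castrated) and 292 counts (autumn castrated), against 37 (spring intact) and 54 (autumn intact), at log2 ratios of 1.01 in spring (0.50 to 1.69) and 1.92 in autumn (1.56 to 2.43) and an edgeR adjusted p of 0.0423.

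DDI2, the protease that activates NFE2L1 in mammals, had 14 counts (spring castrated) and 32 counts (autumn castrated), against 62 (spring intact) and 68 (autumn intact). It was lower in castrated libraries at log2 ratios of -1.84 in spring (-3.04 to -1.23) and -1.40 in autumn (-2.19 to -0.91), with an edgeR adjusted p of 0.0451. NFE2L1, a transcription factor that drives proteasome subunit genes in mammals, had log2 ratios of 0.31 in spring (0.23 to 0.38) and 0.28 in autumn (0.20 to 0.36), with an adjusted p of 0.209 in the same edgeR test. UCHL1, a neuronal ubiquitin hydrolase, had 3535 counts (spring castrated) and 10840 counts (autumn castrated), against 2423 (spring intact) and 1498 (autumn intact). Its autumn castrated library stood far above the other 3, the log2 ratio was 0.61 in spring (0.53 to 0.68) and 2.40 in autumn (2.33 to 2.49), and the edgeR adjusted p was 0.0541.

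PAAF1, which binds ATPases of the regulatory particle, had a log2 ratio of 0.89 in spring (-0.07 to 2.47) and 1.41 in autumn (0.68 to 2.97). USP14, a deubiquitinase bound to the proteasome, had a log2 ratio of -0.62 in spring (-1.51 to 0.08) and -0.63 in autumn (-1.46 to 0.03). The shuttle factor RAD23B and the ligase UBE3A lay nearer 0, at log2 ratios of -0.13 in spring (-0.24 to -0.02) and -0.09 in autumn (-0.20 to 0.02) for RAD23B, and of -0.10 in spring and -0.04 in autumn for UBE3A.

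The medians of other housekeeping complexes lay above 0 as well. The castrated-over-intact median log2 ratio was 0.60 in spring and 1.25 in autumn over 52 oxidative phosphorylation genes, 0.58 and 0.68 over 7 cytosolic chaperonin subunits, and 0.18 and 1.11 over 21 cytoplasmic ribosomal proteins. The proteasome members, at 0.45 and 0.70, lay below oxidative phosphorylation in both seasons and above the ribosomal proteins in spring. The difference between these lists and the proteasome was not tested. In castrated birds the spring-over-autumn median was -0.79 over oxidative phosphorylation and -0.93 over ribosomal proteins, against -0.18 over the proteasome members.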

How the data were processed

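The authors deposited, per library and assembled contig, unnormalized estimated counts and TPM. Reads had been trimmed and quantified with tools that the submitters' processing notes list as Trimmomatic and kallisto, without versions. No source used here names the assembler or the search tool. The authors also deposited contig matches to flycatcher proteins with an e-value (the expect value of the match), a bit score, percent identity and percent of the contig covered.

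Each contig was joined to its match of highest bit score at an e-value of at most 1e-05. Of 507906 contigs, 50994 were matched. Counts were summed per protein name and rounded, CPM was taken over matched counts with TMM factors of 1.03 (spring castrated), 0.925 (autumn castrated), 1.01 (spring intact) and 1.04 (autumn intact), and log2 ratios after adding 0.5 CPM. Intervals and the floor of 3 counts cover counting error only, since reads lacking molecular identifiers do not count molecules. One further name, proteasome subunit beta type-7, had no match within the e-value limit. The additive fit used edgeR 4.0.16 in R 4.3.3, with DESeq2 1.42.0 as an alternative. Its script was tested on simulated counts with less spread than these data and the same effect of gonadal state in both seasons. That test checks the code and cannot show how the fit performs on these data. With 1 library per group and no statement of birds per library, the p-values measure no spread between birds or within a group. Their error comes from the difference between the seasons in the effect of gonadal state, and from all other genes.

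Members and lists were chosen with earlier results of these data known. All members were counted. Named with values were members past 2-fold, the highest and lowest by TPM and the farthest from its class in each structural class, members with 0 counts, and up to 4 pathway genes in each direction; other members, and NFE2L1, were chosen after their values were seen.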

Additional observations from a re-analysis of the deposited data

Results flagged for a closer look

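PSMD1, the scaffold subunit of the regulatory particle base, had season ratios of opposite direction in the gonadal states, each with a counting interval clear of 0. The spring-over-autumn log2 ratio was -0.31 (-0.38 to -0.24) in castrated birds and 0.11 (0.02 to 0.20) in intact birds. These ratios are of sums over contigs. On the contig with 80.5% of its counts the ratio was -0.17 in castrated and -0.42 in intact birds, the same direction. On another contig, with 19.4% of the counts, it was -0.96 in castrated and 2.52 in intact birds. The opposite directions therefore do not hold on the most counted contig. The difference between the states was not tested, since each ratio compares 1 library with 1 library.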

How the results depend on the processing

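Medians of the members kept their direction under every alternative run, at 0.33 to 0.53 (castrated over intact, spring), 0.54 to 0.75 (autumn), -0.23 to -0.02 (spring over autumn, castrated) and 0.01 to 0.10 (intact). Scaling by library totals shifted the median of all genes to 0.04 and -0.18 in the spring and autumn castration pairs and to 0.16 in the castrated season pair. Of 140 alternative values, 120 stayed within the limits set for them and 20 moved, all of them counts of members past a threshold. The core-minus-regulatory difference of medians, which has no test, changed sign in autumn castration (0.01) to between -0.26 and -0.05 in 6 settings, and in the intact season pair (-0.06) to 0.06 with TPM and 0.15 with the most counted contig. Members 2-fold apart in the spring castration pair numbered 2 with no filter, with the most counted contig alone and relative to genes of like contig length, and 0 with a 5 CPM minimum, with 2 CPM added and with stricter matches (e-value of at most 1e-20, identity of at least 70%), in place of 1. In autumn they numbered 3 with library totals and with 2 CPM added, and 11 with the most counted contig alone, in place of 5. In the intact season pair they numbered 0 with library totals and with 2 CPM added, and 3 with the most counted contig alone, in place of 1. In the castrated season pair they numbered 0 with library totals, a 5 CPM minimum, 2 CPM added, TPM, stricter matches and the length adjustment, in place of 1. The shares of all genes 2-fold apart under these settings are not given here, so these counts show nothing particular to the members. Members called for gonadal state numbered 6 with stricter matches, 0 with the most counted contig alone and 8 to 11 otherwise, in place of 10, of which PSMB3 reached 1 CPM in castrated libraries only. The calls over all genes changed as well. They were 608 higher and 1258 lower of 9835 with stricter matches, and 0 of 10453 with the most counted contig alone. With library totals they were 914 higher and 1805 lower of 10557, in place of 851 and 1516 of 10560. The cause of the moved values was not tested. Of 820 single ratios, 33 changed sign. The count-weighted length adjustment and the values without the autumn castrated library were added after the data were seen. No paired analysis was possible because the labels carry no replicate numbers and each group has 1 library. Leaving out a replicate would leave a group with no library. Depth limits PSMB3, PSMD4 and the 4 members not analysed.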
